A study of Mus musculus with 30 samples.

Results

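The response of thioglycollate-elicited macrophages to the liver X receptor (LXR) ligand DMHCA was compared with that of primary hepatocytes, gene by gene, as the difference between the DMHCA changes of the cell types. The genes described are those with a mean level of at least 1 CPM (counts scaled to the library total) in both cell types over the DMHCA and vehicle libraries. There were 10185 such genes among 13700 tested and 23703 present in both count tables. Macrophages were drawn into the mouse peritoneum with thioglycollate and cultured in RPMI with fetal bovine serum, with 3 libraries under vehicle and 3 with 1 uM DMHCA. Primary mouse hepatocytes were cultured in Hepatozyme with the same serum, with 2 libraries under vehicle and 2 with 1 uM DMHCA. All 10 libraries came from cells that had spent 24 h in 10% lipid-deficient serum, with mevalonate at 50 uM and mevastatin at 10 uM, and then 18 to 20 h with ligand or vehicle. Mevastatin, a statin, blocks cholesterol synthesis before mevalonate, and every group received both compounds. Culture medium and the date in the sample titles differ between the cell types, so a difference by cell type cannot be told apart from one by medium or date. The labels do not say whether replicates are separate animals or cultures, so the p-values speak of the spread among these libraries alone, which may be technical.

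LXRs are nuclear receptors that sense oxidised sterols and late sterol intermediates and switch on genes for cholesterol export, lipid transport and fatty acid synthesis. SREBP-2 is held in the endoplasmic reticulum by INSIG proteins when sterols are abundant, and enters the nucleus to switch on cholesterol synthesis and uptake when they are scarce. Macrophages rely on these circuits when they clear lipid-laden debris, whereas hepatocytes are the main site of lipoprotein and fatty acid production. DMHCA is a synthetic cholenamide ligand of LXR, and the comparison asks whether it acts on the same genes in both kinds of cell.

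Library totals over the shared genes were 10.5 to 15.5 M counts in macrophages under vehicle and 3.83 to 7.62 M with DMHCA. They were 6.57 to 12.7 M in hepatocytes under vehicle and 13.7 to 15.1 M with DMHCA. Summed macrophage markers stood at 18435 to 19847 CPM in macrophages and 144 to 257 CPM in hepatocytes. Summed hepatocyte markers stood at 34630 to 39379 CPM in hepatocytes. In macrophages they stood at 787 to 1020 CPM, with Apoa1, Asgr1, Cyp2e1, Fgb, Tat and Ttr at 0 counts in every library. All listed hepatocyte markers but Trf had a mean under 1 CPM in macrophages, so nearly all of that sum was Trf. Markers of stellate cells and fibroblasts summed to 295 to 380 CPM in macrophages under vehicle and 178 to 253 CPM with DMHCA, and no gene of that list was at 0. Kupffer cell markers summed to 55.6 to 60.3 CPM there under vehicle and 176 to 209 CPM with DMHCA. Clec4f, a defining marker, was at 0 counts in every one of those macrophage libraries. Of the 5 Kupffer markers listed, 2 reached 1 CPM in both cell types and 1 of these rose in macrophages, so the sum may follow 1 gene. Mesothelial markers summed to 19.9 to 28.3 CPM in macrophages under vehicle and 16.1 to 17.5 CPM with DMHCA. These shifts go with every macrophage change described here, and their part in them was not tested. In bulk RNA, fewer cells of a type and less RNA per cell cannot be told apart.

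Hepatocyte vehicle replicate 1 stood apart in Gpnmb, Ctss and Lyz2, which are very abundant in macrophages. Of 12 hepatocyte libraries with any ligand it held 27.3 CPM of Gpnmb against 0.387 to 2.95 in the other 11. It held 10.2 CPM of Ctss against 0.442 to 2.69, and 13.7 CPM of Lyz2 against 1.82 to 6.04. Summed macrophage markers, at 209 to 219 CPM, were alike in both hepatocyte vehicle libraries. They were not alike in the hepatocyte DMHCA libraries, at 144 and 257 CPM, on either side of the vehicle range. The hepatocyte DMHCA replicates also differed from each other more than any other pair, by a chi-square of 12.8 per gene against 1.52 to 5.61 in the other pairs (sampling noise gives 1). The 13 hepatocyte changes are given with and without that vehicle library.

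With DMHCA far more genes passed in macrophages than in hepatocytes, and the estimated changes were almost uncorrelated. In macrophages 348 of the 10185 genes rose (3.42%) and 307 fell (3.01%), 655 in all (6.43%). In hepatocytes 1 rose (0.00982%) and 12 fell (0.118%), 13 in all (0.128%), while 900 had an unadjusted p below 0.05. The difference between the cell types passed for 343 genes (3.37%), with the change higher in macrophages for 169 (1.66%) and lower for 174 (1.71%). Of the 169 higher genes 138 rose in macrophages, 9 fell in hepatocytes, 1 of them doing both, and 23 passed in neither cell type alone. Of the 174 lower genes 138 fell in macrophages, 1 rose in hepatocytes and 35 passed in neither.

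No gene was called the same way in both cell types by edgeR. With 13 hepatocyte calls among 10185 genes there was little room for overlap, so this count does not show that the responses are unrelated. DESeq2 called 1, and 72 genes moved the same way at an unadjusted edgeR p below 0.05 in each, against 117 that moved opposite ways. At that level lay 1755 of all 10185 genes in macrophages and 900 (8.84%) in hepatocytes. Genes that rose in macrophages had a median log2 change of 0.38 there and 0.01 in hepatocytes, where 180 of the 348 (51.7%) had an estimate above 0. Over all members 53.7% of hepatocyte estimates were above 0. Genes that fell in macrophages had a median of −0.56 there and 0.04 in hepatocytes, where 129 of the 307 (42.0%) had an estimate below 0. Across the 10185 genes, which are not independent replicates, Pearson's r between the changes was −0.03 and Spearman's rho −0.07. Error in the estimates pulls both towards 0, and hepatocyte groups held 2 libraries each, so neither shows that the responses are unrelated. The median standard error of a log2 change was 0.12 in macrophages, 0.13 in hepatocytes and 0.18 for their difference. These errors rest on a spread shared by all 30 libraries, so they do not compare precision between the cell types. With each cell type fitted alone, 1072 genes passed in macrophages and 0 in hepatocytes. The difference passed for 42.1% of the 655 macrophage calls, and for the other 379 it did not, which does not show that those genes responded alike.

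**Figure D1:**
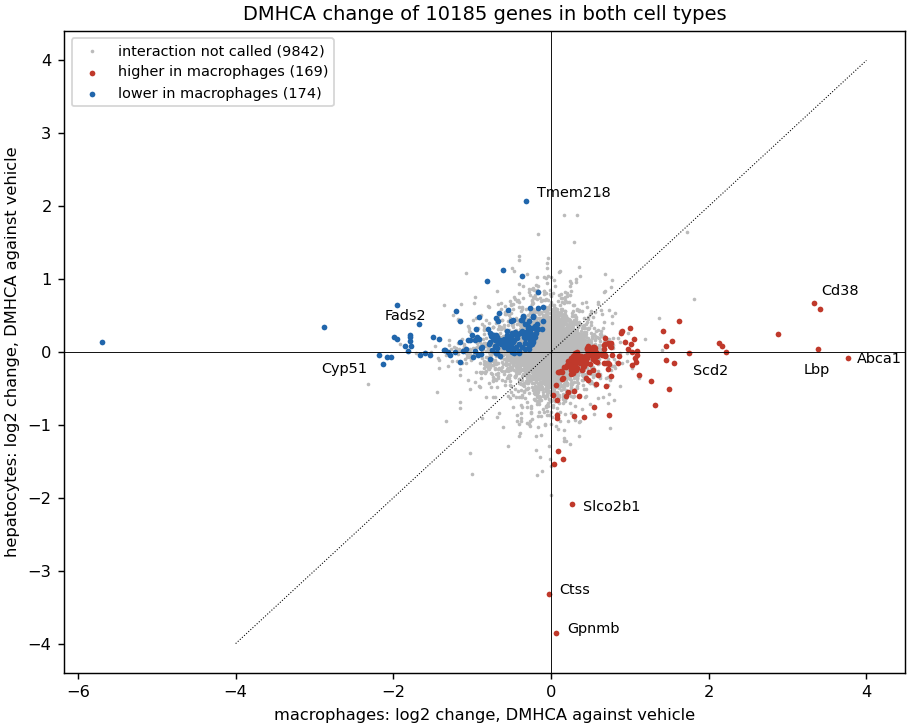
Each point is 1 of 10185 genes, with its log2 change under DMHCA in macrophages on the x axis and in hepatocytes on the y axis, coloured by whether the difference passed at an adjusted p below 0.05. The coloured genes spread mainly along the macrophage axis, Gpnmb, Ctss, Slco2b1 and Tmem218 lie far from 0 on the hepatocyte axis, and the dotted line marks equal changes.

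The number of genes passing depended on single libraries. For the difference between the cell types it was 218 without macrophage vehicle replicate 2, 222 without macrophage DMHCA replicate 3, 192 without hepatocyte vehicle replicate 1 and 592 without hepatocyte DMHCA replicate 2. It was also 192 in limma voom with a variance weight per cell type. The macrophage count was 409 without vehicle replicate 2 and 414 without DMHCA replicate 3, and 1072 when macrophages were fitted alone. Of the 343 genes 111 passed in the same direction in each of the 10 fits that left out 1 library, 56 higher and 55 lower in macrophages. In those fits all 18 called cholesterol biosynthesis enzymes and all 6 other SREBP-2 targets stayed, as did 4 of 6 LXR targets.

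LXR target genes for cholesterol export and lipid transport rose in macrophages, and none passed in hepatocytes by edgeR. Of 14 genes on the list 9 reached 1 CPM in both cell types, of which 8 rose in macrophages and 0 in hepatocytes. The hepatocyte change of 1, Lpcat3, had an unadjusted p below 0.05 in edgeR and passed in DESeq2. The difference passed for 6, all higher in macrophages, and the median log2 change was 1.06 in macrophages and 0.09 in hepatocytes, against 0.00 and 0.01 over all members. Abca1 encodes the membrane pump that loads cholesterol onto apolipoprotein A-I and lies on mm10 at chromosome 4, 53030789 to 53159895, minus strand. It read 159, 184 and 181 CPM in macrophages under vehicle and 2383, 2458 and 2279 CPM with DMHCA. Hepatocytes held 161 and 133 CPM under vehicle and 142 and 137 CPM with DMHCA. The cell types thus began at overlapping levels, and only the macrophage groups separated. The log2 change was 3.76 ± 0.07 (SE, n = 3 per group) in macrophages and −0.08 ± 0.08 (n = 2 per group) in hepatocytes, with a 95% interval of −0.24 to 0.08. The difference was 3.84 ± 0.11 (edgeR adjusted p = 2.23e-29).

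Pltp, the phospholipid transfer protein, read 354, 366 and 379 CPM in macrophages under vehicle and 1650, 1672 and 1624 CPM with DMHCA. In hepatocytes it stayed between 4.97 and 6.87 CPM, and its change differed between the cell types by 2.08 ± 0.25. Arl4c, a small GTPase of membrane traffic, rose in macrophages from 27.4, 25.0 and 26.4 CPM to 121, 115 and 108 CPM. Its hepatocyte levels were 75.4 and 76.7 CPM under vehicle and 80.0 and 86.2 CPM with DMHCA, and the difference was 2.00 ± 0.16. Both genes had macrophage groups that did not overlap.

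Lpcat3, which puts polyunsaturated chains into phospholipids, came nearest to a shared response. It rose from 44.4, 49.1 and 49.0 CPM to 95.7, 87.9 and 83.6 CPM in macrophages. In hepatocytes it stood at 230 and 238 CPM under vehicle and 285 and 284 CPM with DMHCA, a log2 change of 0.28 (95% interval 0.12 to 0.44, edgeR adjusted p = 0.165, DESeq2 adjusted p = 0.0492). The hepatocyte groups did not overlap, and the difference of 0.61 ± 0.11 passed. Lpl, the lipase of circulating triglyceride, rose 2.11-fold in macrophages but stood at 1.39 to 2.37 CPM in hepatocytes, where its change was −0.13 ± 0.29. Apoc2, the activator of that lipase, rose by a log2 change of 1.06 ± 0.20 in macrophages and changed by 0.18 ± 0.10 in hepatocytes. The differences for Lpl (1.21 ± 0.30) and Apoc2 (0.88 ± 0.22) passed. The Lpl call was lost without hepatocyte vehicle replicate 1 or DMHCA replicate 2 (0.67 to 1.43 over the fits that left out 1 library). The Apoc2 call was lost without macrophage vehicle replicate 2, DMHCA replicate 1 or DMHCA replicate 3 (0.75 to 1.07 over those fits). Apoe, the carrier of cholesterol in remnant particles, rose by 0.38 ± 0.06 in macrophages, and Nr1h3, which encodes LXR alpha, by 0.29 ± 0.08. Their differences of 0.29 ± 0.10 and 0.32 ± 0.14 did not pass. Smpdl3a, a phosphodiesterase placed on the same list, changed by 0.00 ± 0.07 in macrophages and −0.29 ± 0.15 in hepatocytes.

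Outside the 1 CPM minimum, Abcg1, a cholesterol exporter, rose in macrophages by 2.49 ± 0.07 but stood at 0.253 to 0.718 CPM in hepatocytes, and its difference of 1.42 ± 0.70 did not pass. Mylip, a ubiquitin ligase and LXR target, rose by 3.35 ± 0.10 in macrophages at 0.442 to 0.687 CPM in hepatocytes. Its difference of 3.47 ± 0.59 passed, and without hepatocyte vehicle replicate 1 it stood at 3.21 and did not pass (edgeR adjusted p = 0.125). Abcg5, Abcg8 and Apoc1, the other LXR targets listed, were under 1 CPM in macrophages.

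Hepatocytes of the series received other ligands too, which were fitted together and against the same 2 vehicle libraries, and the synthetic agonists T0901317 and GW3965 raised Abca1, Srebf1 and Lpcat3. With desmosterol or MePipHCA none of these 3 passed as higher. T0901317, a synthetic agonist at 1 uM, changed hepatocyte Abca1 by 2.39 ± 0.08, Srebf1 by 1.26 ± 0.09 and Lpcat3 by 0.80 ± 0.08. GW3965, a further synthetic agonist at 1 uM, changed Abca1 by 2.26 ± 0.08. Desmosterol, a late intermediate of cholesterol synthesis given at 10 uM, left Abca1 at a change of 0.21 ± 0.08 (edgeR adjusted p = 0.235) and Srebf1 at 0.05 ± 0.09. With MePipHCA at 1 uM Abca1 fell by 0.80 ± 0.08 on the log2 scale (edgeR adjusted p = 3.27e-09), and Srebf1 changed by −0.22 ± 0.09 (adjusted p = 0.207). Hmgcs1, an enzyme of cholesterol synthesis, changed by −0.98 ± 0.08 with MePipHCA (edgeR adjusted p = 3.1e-12). With desmosterol it changed by −0.28 ± 0.07 (edgeR adjusted p = 0.045). Its changes of −0.20 ± 0.07 with T0901317 and −0.09 ± 0.07 with GW3965 did not pass. Of the 10185 genes 324 passed with T0901317 (3.18%), 159 with GW3965 (1.56%), 443 with MePipHCA (4.35%) and 120 with desmosterol (1.18%). These counts share vehicle libraries with the 13 for DMHCA, and the ligands were not tested against each other here.

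**Figure D2:**
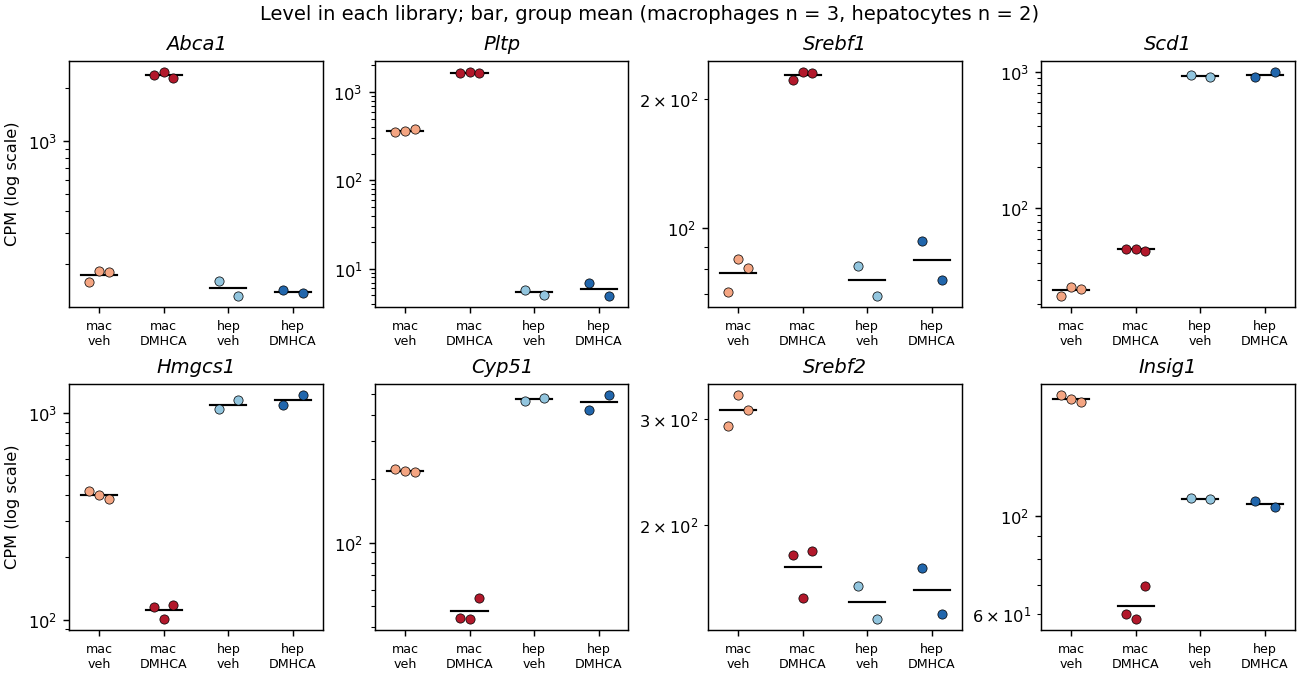
Level of 8 genes in each library, as CPM on a log scale, with each point a library and each bar a group mean (macrophages n = 3, hepatocytes n = 2, veh for vehicle). The upper row holds LXR targets and lipogenic genes that rise between macrophage groups, such as Abca1 from 159 to 184 CPM up to 2279 to 2458 CPM, and the lower row holds genes of sterol synthesis and its control that fall there, while hepatocyte points stay close.

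Under DMHCA, cholesterol biosynthesis enzymes fell in macrophages, and none passed in hepatocytes by edgeR. All 20 listed enzymes were members, of which 18 fell and 1 rose in macrophages. In hepatocytes 0 passed by edgeR, 2 had an unadjusted p below 0.05 and DESeq2 called 1. The difference passed for 18 (90%), all lower in macrophages, against 3.37% of all members. Median log2 changes were −1.79 in macrophages and 0.05 in hepatocytes, where estimates ran from −0.17 to 0.65. The count of 18 was 17 or 18 in each of 23 alternative analyses, with 17 where the list lost a member to a stricter minimum or to transcript matching.

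Cyp51, the demethylase of lanosterol, shows the pattern library by library. It lies on mm10 at chromosome 5, 4080674 to 4104697, minus strand. Macrophages read 223, 217 and 215 CPM under vehicle and 44.0, 43.7 and 54.8 CPM with DMHCA, 4.54-fold lower. Hepatocytes read 466 and 483 CPM under vehicle and 423 and 495 CPM with DMHCA, a log2 change of −0.05 ± 0.09 (edgeR adjusted p = 0.937). Groups were apart in macrophages and overlapped in hepatocytes, and the difference was −2.14 ± 0.13 (edgeR adjusted p = 8.41e-17).

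Enzymes along the whole path moved together in macrophages. At its start, Hmgcs1, the synthase that makes HMG-CoA, read 419, 399 and 382 CPM under vehicle and 115, 101 and 117 CPM with DMHCA. Hepatocyte levels were 1037 and 1154 CPM under vehicle and 1095 and 1213 CPM with DMHCA, and these groups overlapped. Of the mevalonate kinases and isomerases, Mvk differed by −2.06 ± 0.23 and Idi1 by −2.60 ± 0.60, the latter at no more than 6.68 CPM in any library. The farnesyl diphosphate synthase Fdps differed by −2.13 ± 0.20. In the squalene and sterol steps, the epoxidase Sqle differed by −1.96 ± 0.12 and the reductase Tm7sf2 by −2.20 ± 0.29. The exceptions were Fdft1, the squalene synthase, which rose by 0.31 ± 0.06 in macrophages, and Ebp, a sterol isomerase, at −0.18 ± 0.10. Their differences of 0.22 ± 0.10 and −0.19 ± 0.15 did not pass.

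Promoters of 3 of these enzymes and of Abca1 are shown because the enzymes fell together and Abca1 rose in the same macrophages. They come from RefSeq on GRCm38.p6 (mm10) and run from 250 bases before to 50 after the transcription start, 5′ to 3′. They are Hmgcs1 (chr13:119690101-119690400, plus strand), Idi1 (chr13:8885356-8885655, plus), Cyp51 (chr5:4104648-4104947, minus) and Abca1 (chr4:53159846-53160145, minus). Capitals mark matches on either strand to CCAAT, the box bound by NF-Y, or to TCACNCCAC, a form of the sterol regulatory element. Matches of these motifs do not overlap in the sequences shown.
Hmgcs1: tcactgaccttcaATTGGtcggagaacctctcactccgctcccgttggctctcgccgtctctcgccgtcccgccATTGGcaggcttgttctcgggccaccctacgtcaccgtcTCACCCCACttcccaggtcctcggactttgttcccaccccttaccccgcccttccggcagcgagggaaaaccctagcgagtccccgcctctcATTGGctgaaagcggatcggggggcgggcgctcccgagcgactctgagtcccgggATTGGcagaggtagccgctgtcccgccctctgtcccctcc
Idi1: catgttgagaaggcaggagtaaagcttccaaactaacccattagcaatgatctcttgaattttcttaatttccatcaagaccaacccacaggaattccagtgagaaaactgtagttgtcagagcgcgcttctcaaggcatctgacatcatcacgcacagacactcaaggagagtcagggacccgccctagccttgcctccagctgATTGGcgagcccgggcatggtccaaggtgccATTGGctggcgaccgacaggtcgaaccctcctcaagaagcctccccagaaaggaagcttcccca
Cyp51: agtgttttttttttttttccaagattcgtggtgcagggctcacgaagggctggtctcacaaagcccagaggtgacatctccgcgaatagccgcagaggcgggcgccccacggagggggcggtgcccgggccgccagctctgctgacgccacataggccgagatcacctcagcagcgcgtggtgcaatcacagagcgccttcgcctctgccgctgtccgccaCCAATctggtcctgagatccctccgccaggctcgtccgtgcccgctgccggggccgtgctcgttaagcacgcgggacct
Abca1: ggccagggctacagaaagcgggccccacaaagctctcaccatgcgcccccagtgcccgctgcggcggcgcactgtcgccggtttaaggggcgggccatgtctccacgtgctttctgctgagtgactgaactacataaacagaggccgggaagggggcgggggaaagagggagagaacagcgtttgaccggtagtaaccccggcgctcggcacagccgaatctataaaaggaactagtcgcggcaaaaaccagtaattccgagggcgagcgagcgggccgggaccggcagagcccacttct

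CCAAT was found in 14 of 18 promoters of the cholesterol enzymes (77.8%), which covered 15 of the 20 genes. It was found in 37.4% of all 32851 promoters of this length and in 37.9% of those of members. TCACNCCAC was found in 1.24% of all promoters and in 1 of these 18, that of Hmgcs1. A form of the LXR element, AGGTNA and GGTCA with 5 bases of any kind between them, was found in 0.0883% of all promoters. It was found in 0 of 10 of the LXR targets, Abca1 included. The Abca1 sequence shown holds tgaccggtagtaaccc, which read on the other strand departs from that pattern at the first base alone. A count of 0 for this strict pattern thus does not show that an LXR element is absent. A match describes letters in this window and is not a measured binding site.

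Other SREBP-2 targets followed the enzymes. Of 9 genes 8 were members, 6 fell in macrophages, 0 passed in hepatocytes (0 at an unadjusted p below 0.05 in edgeR and 0 in DESeq2), and the difference passed for the same number, 6, all lower in macrophages. Medians were −1.09 in macrophages and 0.08 in hepatocytes.

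Insig1, which retains SREBPs in the endoplasmic reticulum, read 186, 182 and 180 CPM under vehicle and 60.1, 58.6 and 69.6 CPM with DMHCA in macrophages. In hepatocytes it stayed between 105 and 109 CPM, and the difference was −1.49 ± 0.12. Srebf2 itself read 293, 329 and 311 CPM in macrophages under vehicle and 178, 151 and 180 CPM with DMHCA, against 139 to 170 CPM across the hepatocyte libraries, and differed by −0.94 ± 0.12. Aacs, which activates acetoacetate for lipid synthesis, differed by −1.61 ± 0.14, and the sterol carrier Stard4 by −1.02 ± 0.19. Npc1, the lysosomal exporter of cholesterol, and the membrane protein Tmem97 did not pass, with differences of 0.17 ± 0.09 and −0.46 ± 0.18.

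The lipogenic list, Srebf1 with the fatty acid enzymes, moved both ways in macrophages. In hepatocytes none of its genes passed by edgeR and only Fasn by DESeq2. Of 17 genes 14 were members. In macrophages 5 rose and 5 fell, and the difference passed for 4 higher and 5 lower genes, with a median near 0 (0.14). Srebf1 encodes SREBP-1a and SREBP-1c, which these gene counts do not separate. It read 70.7, 84.3 and 80.5 CPM in macrophages under vehicle and 222, 231 and 230 CPM with DMHCA. In hepatocytes it read 81.4 and 69.4 CPM under vehicle and 93.0 and 75.4 CPM with DMHCA, and these groups overlapped. The difference was 1.38 ± 0.12. The desaturases that make monounsaturated chains went with it, Scd1 differing by 0.94 ± 0.12 and Scd2 by 1.77 ± 0.19. Elovl5, an elongase of polyunsaturated chains, differed by 0.40 ± 0.11, a call lost in 7 of the 10 fits that left out 1 library, with the difference at 0.34 to 0.46 over all 10.

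Lower in macrophages were the desaturase Fads2 (−2.03 ± 0.29), the elongase Elovl6 (−1.59 ± 0.20), the acetyl-CoA synthetase Acss2 (−1.13 ± 0.23) and the citrate lyase Acly (−0.50 ± 0.09). Fasn, the fatty acid synthase, read 116, 141 and 128 CPM under vehicle and 126, 101 and 117 CPM with DMHCA in macrophages, where the groups overlapped. Hepatocyte Fasn stood at 322 and 289 CPM under vehicle and 397 and 363 CPM with DMHCA, and there the groups were apart. Neither change passed alone (edgeR adjusted p = 0.261 and 0.123), although DESeq2 called the hepatocyte change (adjusted p = 0.0404), while the difference of −0.48 ± 0.11 did (adjusted p = 0.00876). The Fasn call was lost without macrophage vehicle replicate 2 or DMHCA replicate 2, and without hepatocyte vehicle replicate 2 or DMHCA replicate 1, with the difference between −0.42 and −0.40 in each.

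**Figure D3:**
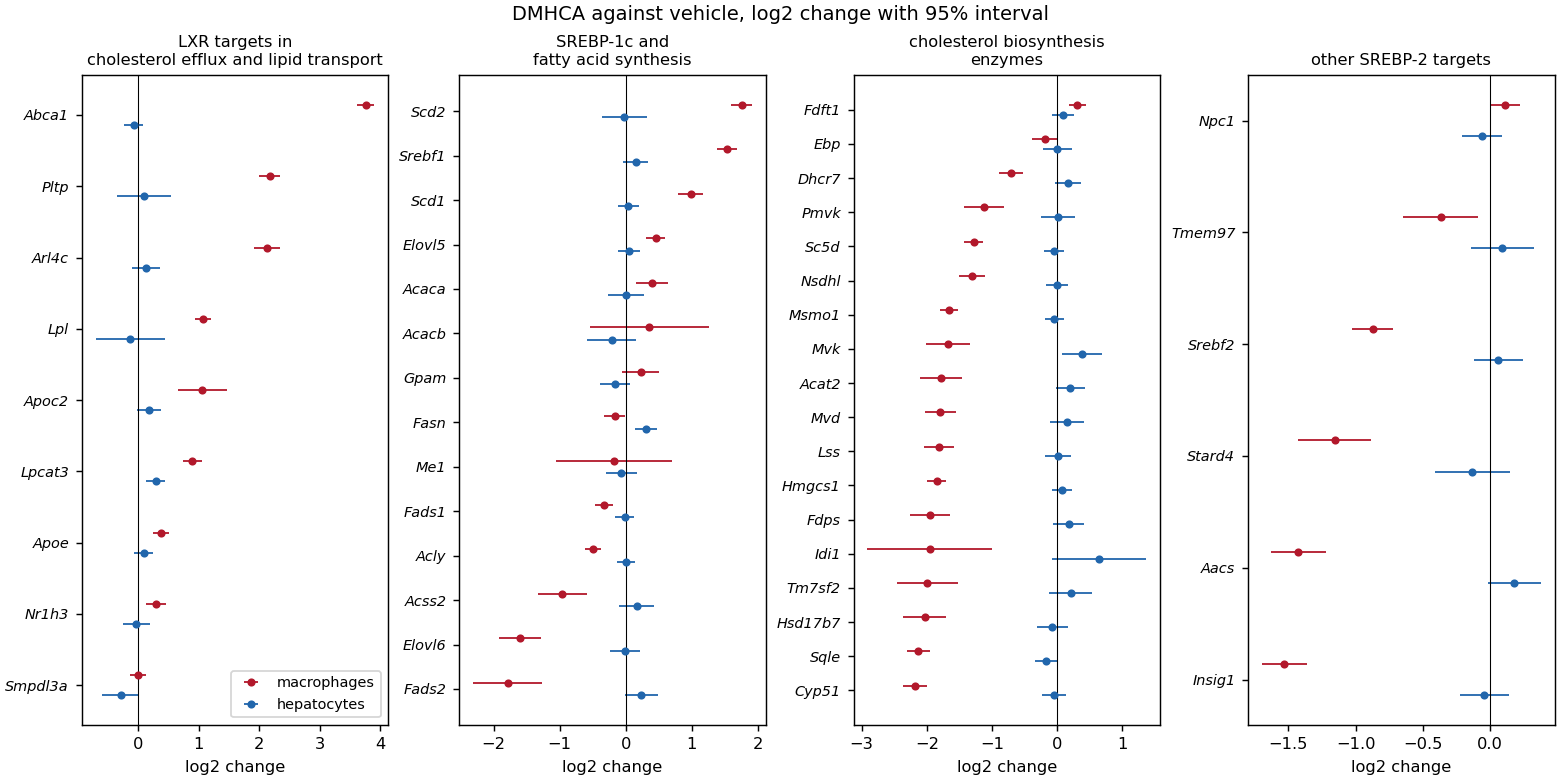
Log2 change under DMHCA with its 95% interval for members of 4 gene lists, those not reported here left out, in macrophages (red) and hepatocytes (blue), ordered by the macrophage change. Hepatocyte points cluster at 0 in all 4 panels. Macrophage points lie to the right for LXR targets other than Smpdl3a and on both sides for fatty acid synthesis. They lie to the left for the cholesterol enzymes other than Fdft1 and Ebp.

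In the other 9 gene lists the difference passed for 9 of 81 entries (11.1%), against 3.37% of all members, and none had a member that passed in hepatocytes by edgeR or DESeq2. Over all 13 lists 19 of 132 entries (14.4%) had a hepatocyte change at an unadjusted p below 0.05, against 8.84% of all members. Among 13 genes of ER and amino acid stress the difference passed for 1, Hspa5, the main chaperone of the endoplasmic reticulum. It read 798 to 891 CPM in macrophages under vehicle and 1205 to 1218 CPM with DMHCA. Hepatocyte libraries read 769 to 818 CPM, and the difference was 0.56 ± 0.09. Genes of ER protein folding outside this list also had a difference that passed, such as Hsp90b1 and Dnajc3. The list thus does not stand for that whole function. Of 7 NRF2 targets 2 passed, the heme oxygenase Hmox1 (0.42 ± 0.09) and the thioredoxin reductase Txnrd1 (0.34 ± 0.09), of which the first lost its call without hepatocyte DMHCA replicate 2 (0.30) and the second in 7 of the 10 fits that left out 1 library (0.31 to 0.37). Of 5 members among PXR and CAR targets 1 passed, the organic anion exporter Abcc3. It rose in macrophages from 103, 117 and 114 CPM to 310, 305 and 306 CPM and stayed between 483 and 543 CPM in hepatocytes, a difference of 1.37 ± 0.10.

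Of 11 lysosomal genes 2 passed, the proteases Ctsl (0.74 ± 0.10) and Ctsb (0.35 ± 0.10). Ctsl read 4639 to 4853 CPM in macrophages under vehicle and 7349 to 8130 CPM with DMHCA. Ctsb kept its call in only 2 of the 10 fits that left out 1 library, with a difference of 0.21 without hepatocyte vehicle replicate 1. In the inflammatory list 10 of 19 genes were members, and the difference passed for 2, both lower in macrophages. Icam1, an adhesion molecule for leukocytes, read 51.9, 59.7 and 56.5 CPM in macrophages under vehicle and 34.5, 36.4 and 29.7 CPM with DMHCA. In hepatocytes it read 68.1 and 67.0 CPM under vehicle and 79.0 and 81.3 CPM with DMHCA, and the difference was −1.0 ± 0.17. Tlr2, a receptor for bacterial lipoproteins, differed by −1.12 ± 0.30, a call lost without macrophage vehicle replicate 2 or DMHCA replicate 3, and without hepatocyte vehicle replicate 2 (−0.81) or DMHCA replicate 2. The list median was −0.60, against −0.01 over all members.

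Of 15 interferon response members 1 passed, the signalling factor Stat2 (−0.46 ± 0.12), a call lost without macrophage vehicle replicate 2 or DMHCA replicate 2, and without either hepatocyte vehicle library, with the difference between −0.49 and −0.42 over the 10 fits. The 2 members of the bile acid list, 8 of fatty acid oxidation and 10 of the cell cycle had 0 differences that passed in edgeR. At an unadjusted p below 0.05 there were 1, 3 and 0, and DESeq2 called 1, 1 and 0. Listed genes under 1 CPM in macrophages lie outside this comparison, such as Cyp3a11 of the PXR and CAR list, Fabp1 of the fatty acid oxidation list and Abcb11 of the bile acid list, which hepatocytes use for detoxification, fatty acid binding and bile export.

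**Figure D4:**
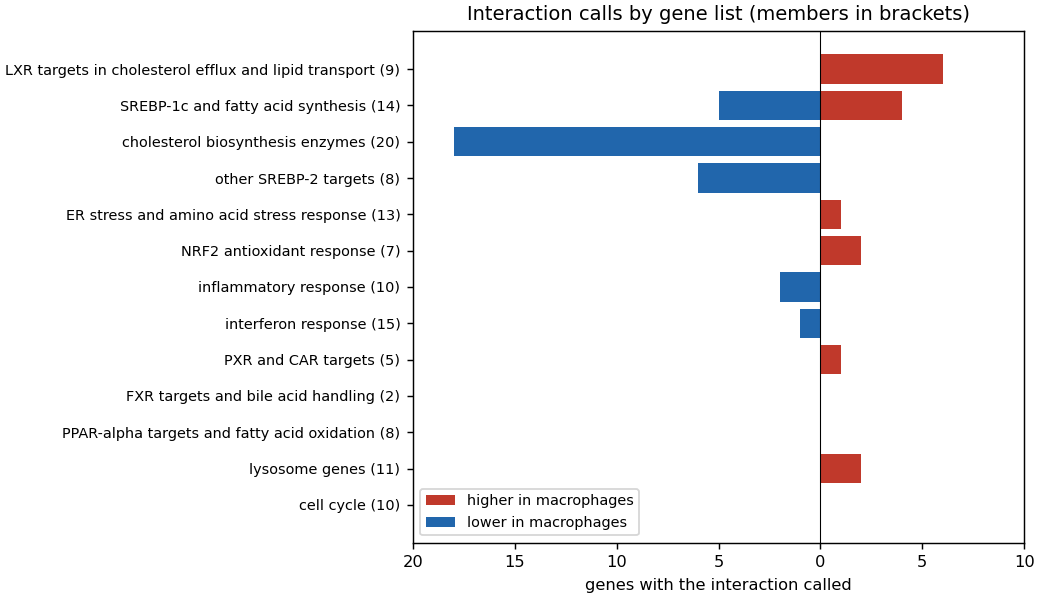
Number of genes per list whose change under DMHCA differed between the cell types, higher in macrophages to the right and lower to the left, with the number of members in brackets. Cholesterol enzymes (18 lower), other SREBP-2 targets (6 lower), LXR targets (6 higher) and fatty acid synthesis (4 higher, 5 lower) hold most of the listed calls.

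Outside the lists, the largest differences upward without a hepatocyte fall included those of Lbp, Cd38, Il18bp and Bach2os. Lbp, which hands bacterial lipopolysaccharide to its receptor and is made in liver, read 1.47, 1.78 and 2.12 CPM in macrophages under vehicle and 19.0, 23.5 and 14.9 CPM with DMHCA. The macrophage level with DMHCA overlapped that of hepatocytes, which read 14.2 to 19.3 CPM in all libraries, and the difference was 3.35 ± 0.30. Cd38, an ectoenzyme that consumes NAD, read 3.25, 3.84 and 2.89 CPM in macrophages under vehicle and 43.1, 32.4 and 28.8 CPM with DMHCA. In hepatocytes it read 1.84 and 1.65 CPM under vehicle and 2.56 and 3.09 CPM with DMHCA, a log2 change of 0.68 ± 0.31 (edgeR adjusted p = 0.527), and the difference was 2.66 ± 0.40. Il18bp, the secreted decoy of interleukin 18, differed by 2.62 ± 0.20, rising in macrophages from 5.77 to 6.19 CPM up to 40.4 to 47.9 CPM. Bach2os, an antisense transcript whose reads may not be separable from those of its partner gene, differed by 2.82 ± 0.62. Its call was lost without hepatocyte vehicle replicate 2 (2.44). At the lower end, the 8 lowest differences included those of the cholesterol enzymes Idi1, Tm7sf2, Cyp51, Fdps and Mvk. Tmem218, a protein of the cilium base, was also among them at −2.39 ± 0.60. Its macrophage libraries lay between 3.96 and 5.67 CPM, while hepatocytes read 0.526 and 0.380 CPM under vehicle and 2.12 and 1.93 CPM with DMHCA, and its call was lost without either hepatocyte vehicle library or without hepatocyte DMHCA replicate 1.

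All 13 hepatocyte calls were lost without vehicle replicate 1, and for Gpnmb, Ctss and Lyz2 the size of the change went with it. Gpnmb, a glycoprotein of phagocyte lysosomes on mm10 at chromosome 6, 49036518 to 49058182, read 27.3 and 1.65 CPM under vehicle and 2.06 and 0.387 CPM with DMHCA in hepatocytes. The second vehicle library lay between the DMHCA libraries, so the groups overlapped. In macrophages it stood near 38161 CPM and changed by 0.07 ± 0.16. The difference of 3.91 ± 0.52 passed with all libraries and stood at 0.55 (edgeR adjusted p = 0.806) without hepatocyte vehicle replicate 1. Ctss, a protease of antigen-presenting cells, had a difference of 3.29 ± 0.48 with that library and 0.71 without it. Lyz2, the lysozyme of myeloid cells, whose reads may be shared with its near copy Lyz1, fell in hepatocytes with that library, and its difference was 1.45 ± 0.33 with it and −0.16 without it. That call was also lost without hepatocyte DMHCA replicate 2 (0.80). Of 7 members at least 1000 times higher in macrophages, 3 were highest of all hepatocyte libraries in that one, Gpnmb, Ctss and Lyz2. The other 4, Atp6v0d2, Lhfpl2, Lpl and Nckap1l, were not, and read 1.25 to 2.57 CPM in it. What put these reads there was not tested.

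Without hepatocyte vehicle replicate 1 no gene passed in hepatocytes, with 908 at an unadjusted p below 0.05. No hepatocyte gene passed either when hepatocytes were fitted alone in edgeR (493 at an unadjusted p below 0.05) or in limma voom with a weight per cell type (382). DESeq2 called 36, of which 14 rose and 22 fell. Without hepatocyte DMHCA replicate 2 there were 112, of which 73 rose and 39 fell. Among the 13 were genes whose groups did not overlap, chosen for mention after their values were seen, and several kept most of their change without that library. Slco2b1, an organic anion transporter, read 2.10 and 1.90 CPM under vehicle and 0.499 and 0.442 CPM with DMHCA, against 51.3 to 74.7 CPM in macrophages. Its hepatocyte change was −2.09 with vehicle replicate 1 and −1.99 without it, where the difference of 2.26 still passed (edgeR adjusted p = 0.0122). Tfeb, a regulator of lysosome genes, rose from 8.29 and 9.12 CPM to 13.7 and 12.6 CPM, a change of 0.61 with that library and 0.53 without it. Mir17hg also fell, with a change of −1.16 with it and −1.25 without it, as did Slc7a2 (−0.56 and −0.52) and Neat1 (−0.51 and −0.40). The estimates of Tbc1d9 (−0.86 and −0.58), Gas2l3 (−0.66 and −0.44), Col12a1 (−1.68 and −1.02) and Lcp2 (−1.47 and −0.84) moved further towards 0 without that library.

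Zfp715, a zinc finger protein, was the 1 gene called in opposite directions. It read 40.2, 36.9 and 41.5 CPM in macrophages under vehicle and 44.0, 53.9 and 52.5 CPM with DMHCA. In hepatocytes it read 24.7 and 21.8 CPM under vehicle and 17.1 and 13.7 CPM with DMHCA. Groups were apart in both cell types, with changes of 0.36 ± 0.11 and −0.61 ± 0.14 just past the threshold (edgeR adjusted p = 0.0481 and 0.0445). The difference of 0.97 ± 0.18 passed in each of 23 alternative analyses, whereas the hepatocyte call did not, with a hepatocyte change of −0.50 without vehicle replicate 1.

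The 1 CPM minimum set which genes were compared. Of 239 members under 1.5 CPM in hepatocytes 5 had a difference that passed, and of 185 tested genes just under the minimum there, at 0.67 to under 1 CPM, 6 did. In macrophages 253 members lay under 1.5 CPM, with 1 difference that passed. A further 1193 tested genes were under 1 CPM in hepatocytes and 1383 in macrophages. Over all 13700 tested genes the difference passed for 378 (2.76%).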

How the data were processed

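Polyadenylated RNA was sequenced from dUTP-marked libraries. STAR alignment and HOMER counting on mm10 are named in the submitters' processing notes, with versions not given in the sources used here. The deposited tables hold raw exon counts for 1 RefSeq transcript of each gene, per the file headers, which state no strand option. The deposited RPKM tables were not used. Tables were joined by gene symbol, and 733 members have another transcript in each table.

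All 30 libraries of the series (12 groups) were fitted together in edgeR 4.0.16 (R 4.3.3) with filterByExpr, TMM scaling and a quasi-likelihood test (18 residual degrees of freedom, common coefficient of variation 0.0771). The interaction is the DMHCA change in macrophages minus that in hepatocytes. P-values were adjusted by Benjamini-Hochberg over 13700 genes, with a threshold of 0.05 and no fold threshold, and "passed" or "called" means below it. Values after ± are standard errors of log2 changes, from the spread shared by all groups of this fit. CPM are on TMM-scaled libraries. Replicate numbers were not used to pair the samples (correlations within a number of −0.01 to 0.08, highest for the own number in macrophages). No replicates agreed within sampling noise. Scripts were tested on simulated data.

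Named genes were 12 fixed genes, up to 3 per list, the 8 highest and 8 lowest interactions, and up to 6 called in both cell types, and some genes this rule names are not reported here. Members and lists were chosen with earlier results of these data known. Alternatives used DESeq2 1.42.0, limma 3.58.1, other scaling, filters, separate fits, a replicate block, thinning and libraries left out.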

Additional observations from a re-analysis of the deposited data

Results flagged for a closer look

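The DMHCA change differed between macrophages and hepatocytes, by the test of the difference itself, for 343 of the genes at 1 CPM or more in both, and the named genes among them are listed here with that difference on the log2 scale, macrophages minus hepatocytes. For LXR targets the values were Abca1 3.84, Pltp 2.08, Arl4c 2.00, Lpcat3 0.61 and Mylip 3.47. Among genes of fatty acid synthesis the values were Srebf1 1.38, Scd1 0.94, Scd2 1.77, Fasn −0.48, Fads2 −2.03 and Elovl6 −1.59. Across the cholesterol enzymes the values were Idi1 −2.60, Tm7sf2 −2.20, Cyp51 −2.14, Fdps −2.13, Mvk −2.06 and Sqle −1.96. In other SREBP-2 targets the values were Aacs −1.61 and Insig1 −1.49. Over stress, antioxidant and export genes the values were Hspa5 0.56, Hmox1 0.42, Txnrd1 0.34 and Abcc3 1.37. For inflammatory, interferon and lysosomal genes the values were Icam1 −1.0, Tlr2 −1.12, Stat2 −0.46, Ctsl 0.74 and Ctsb 0.35. Among the immune and antisense genes the values were Lbp 3.35, Cd38 2.66, Il18bp 2.62 and Bach2os 2.82. Genes whose difference came mainly from the hepatocyte arm were Gpnmb 3.91, Ctss 3.29, Slco2b1 2.36 and Tmem218 −2.39, and the values of Gpnmb and Ctss were 0.55 and 0.71 without hepatocyte vehicle replicate 1. Zfp715, at 0.97, was called in opposite directions. Mylip lies under 1 CPM in hepatocytes. Cell type cannot be told apart from medium and date in these values.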

How the results depend on the processing

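The difference between cell types was called for 343 genes, the macrophage change for 655 and the hepatocyte change for 13. Counts within 1.5 times of these were found in 50 of 69 comparisons with an alternative. With limma voom and a weight per cell type the counts were 192, 1045 and 0, and with separate fits per cell type the macrophage count was 1072 and the hepatocyte count 0. Hepatocyte counts were 36 with DESeq2 (14 up, 22 down), 49 with no filter on low counts, 8 with the 10 DMHCA and vehicle libraries alone, 8 at a minimum of 5 CPM and 7 with libraries thinned to the smallest. Leaving out 1 library at a time gave 192 to 592 differences, 409 to 740 macrophage calls and 0 to 112 hepatocyte calls. Where that left 1 hepatocyte library in a group, it was assumed to vary like the other groups. The cause was not tested. With the replicate number as a block the counts were 365, 678 and 14. Each macrophage library deviated most like its own number (correlations of 0.04 to 0.08), a hint from the data and not the design. Reading the 1 CPM minimum from vehicle libraries only, an alternative chosen after seeing the data, gave 348, 658 and 16. No gene picked by the naming rule changed sign in its difference under any alternative, and 12 lost their call in at least 1: Mylip, Fasn, Hmox1, Txnrd1, Tlr2, Stat2, Ctsb, Gpnmb, Ctss, Bach2os, Slco2b1 and Tmem218. Of genes described outside that rule, Lyz2 went from 1.45 to −0.16 without hepatocyte vehicle replicate 1. Lpl, Apoc2, Elovl5, Lcp2, Tfeb, Tbc1d9, Gas2l3 and Slc7a2 lost their call without at least 1 library and kept their sign in those fits. The share of differences higher in macrophages was 49.3%, with 45.1% to 56.4% over the alternatives. Depth limits macrophage genes of few counts with DMHCA most, since those libraries hold 3.83 to 7.62 M counts.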
